A study of Homo sapiens with 2 samples.

Results

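The genes described here are 36 genes of the extracellular matrix, the protein scaffold that cells secrete around themselves, taken by symbol from a fixed list, and all 36 were among the 36601 genes of the count tables. By the role of their proteins, 16 belong to basement membranes, 14 to collagen fibrils and microfibrils, and 6 are other collagens that fall in neither set. The cells were astrocyte progenitors differentiated from the human embryonic stem cell line H7 and were profiled by droplet single-cell RNA sequencing with the 10x Genomics 3′ kit, which counts unique molecular identifiers (UMIs), each standing for 1 captured RNA molecule. Differentiation had run for 160 days in 1 library and 220 days in the other. Cultures of either day had been given LIF, BMP4 and FGF1, signalling proteins used to drive astrocyte formation, so the agents are shared by both groups and no untreated culture was analysed here. In each library 3 separately differentiated lines had been pooled after dissociation with Accutase, and no label separates them. Each day was therefore 1 sample, no test between the days was possible, and every interval below covers counting error alone at 95%. For the later library, the title and the time-point label give day 220, while the protocol text names day 160.

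Basement membranes are thin sheets in which a network of laminin, a trimer of alpha, beta and gamma chains, is joined to a network of type IV collagen by nidogen and the heparan sulfate proteoglycans perlecan and agrin. In the brain they line blood vessels and the pial surface, where radial glia and astrocytes anchor their endfeet. Fibrillar collagens assemble into the fibres of connective tissue, which lysyl oxidase crosslinks, and in the central nervous system they are mostly a product of meningeal and perivascular fibroblasts.

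Barcodes were used as cells when 1000 or more genes were detected and mitochondrial transcripts made up no more than 15% of UMIs, which held for 9972 of 13018 barcodes at day 160 and 524 of 676 at day 220. The libraries differed in depth, with 128847264 UMIs and a median of 10457.5 per cell at day 160 against 25981066 UMIs and a median of 46438 per cell at day 220. Only 2 cell barcodes occurred in both. Levels are given as CPM, a gene's UMIs divided by all UMIs of the cells summed and scaled to 1000000, where 3 UMIs correspond to 0.0233 CPM at day 160 and 0.115 CPM at day 220. Since 3′ counts are not scaled to gene length, levels are compared between libraries or cells within a gene and not between genes. Of 12 astrocyte markers, 10 reached 5 CPM at day 160 and 8 at day 220, with AQP4 at 5.10 and 2.08 CPM, and all 12 radial glia markers did so in both libraries. Endothelial markers summed to 0.71 and 1.19 CPM over 7 genes, and microglial markers to 0.04 and 0.42 CPM over 4 genes.

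Both matrix sets had a higher summed level in the day 220 library. The 16 basement membrane genes summed to 516 CPM (513 to 520) at the earlier day and 1197 CPM (1184 to 1211) at the later, a ratio of 2.32 (2.29 to 2.35). The 14 fibrillar genes summed to 183 CPM (181 to 186) and 373 CPM (366 to 381), a ratio of 2.03 (1.99 to 2.08). The balance between the sets moved little by comparison, with basement membrane genes taking 67.8% (67.5 to 68.1) of the UMIs of the 36 genes at day 160 and 70.2% (69.7 to 70.6) at day 220. Fibrillar genes took 24.1% and 21.9%, and the other collagens 8.17% and 7.98%.

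Of the 36 genes, 24 reached 5 CPM in at least 1 library. On a log2 ratio of CPM + 1, 14 of these were 2-fold higher or more in the day 220 library, and LOX alone was 2-fold lower or more. The same calls were met by 23.5% (higher) and 5.08% (lower) of all 11997 genes past this floor, whose median log2 ratio was 0.16. The basement membrane set had 9 of 14 genes higher and 0 lower, with a median of 1.23. In the fibrillar set 4 of 8 were higher and 1 was lower, with a median of 1.32. Of the 2 other collagens past the floor 1 was higher. NID1, COL2A1 and FBN1 passed the floor through their day 220 level alone and so could not have counted as lower.

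The ratio between the libraries followed the length of a gene's introns, the stretches spliced out of the transcript. Across 11948 genes Spearman's rho was 0.61 (genes are not independent). Of 1907 genes with 100000 to 300000 intron bases, 59.6% passed 2-fold upward, and of 2989 genes under 10000 bases 4.42% did. Many matrix genes are long: 12 of the 24 lay between 100000 and 300000 intron bases, and 9 of these 12 were higher. The ratios were therefore also centred on the median of genes of like intron length. After centring, 11.6% of all genes were at least 2-fold higher and 7.38% at least 2-fold lower. Of the 24 matrix genes 6 then stayed at least 2-fold higher or became so, namely LAMB1, LAMC1, NID1, COL1A1, COL2A1 and COL8A1. COL4A6 and LOX were lower, and the median was 0.15. The basement membrane median was 0.24 with 3 higher and 1 lower, and the fibrillar median 0.08 with 2 higher and 1 lower. Whether reads in introns were counted is not given in the available sources, and what underlies the relation to intron length was not tested.

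**Figure D1:**
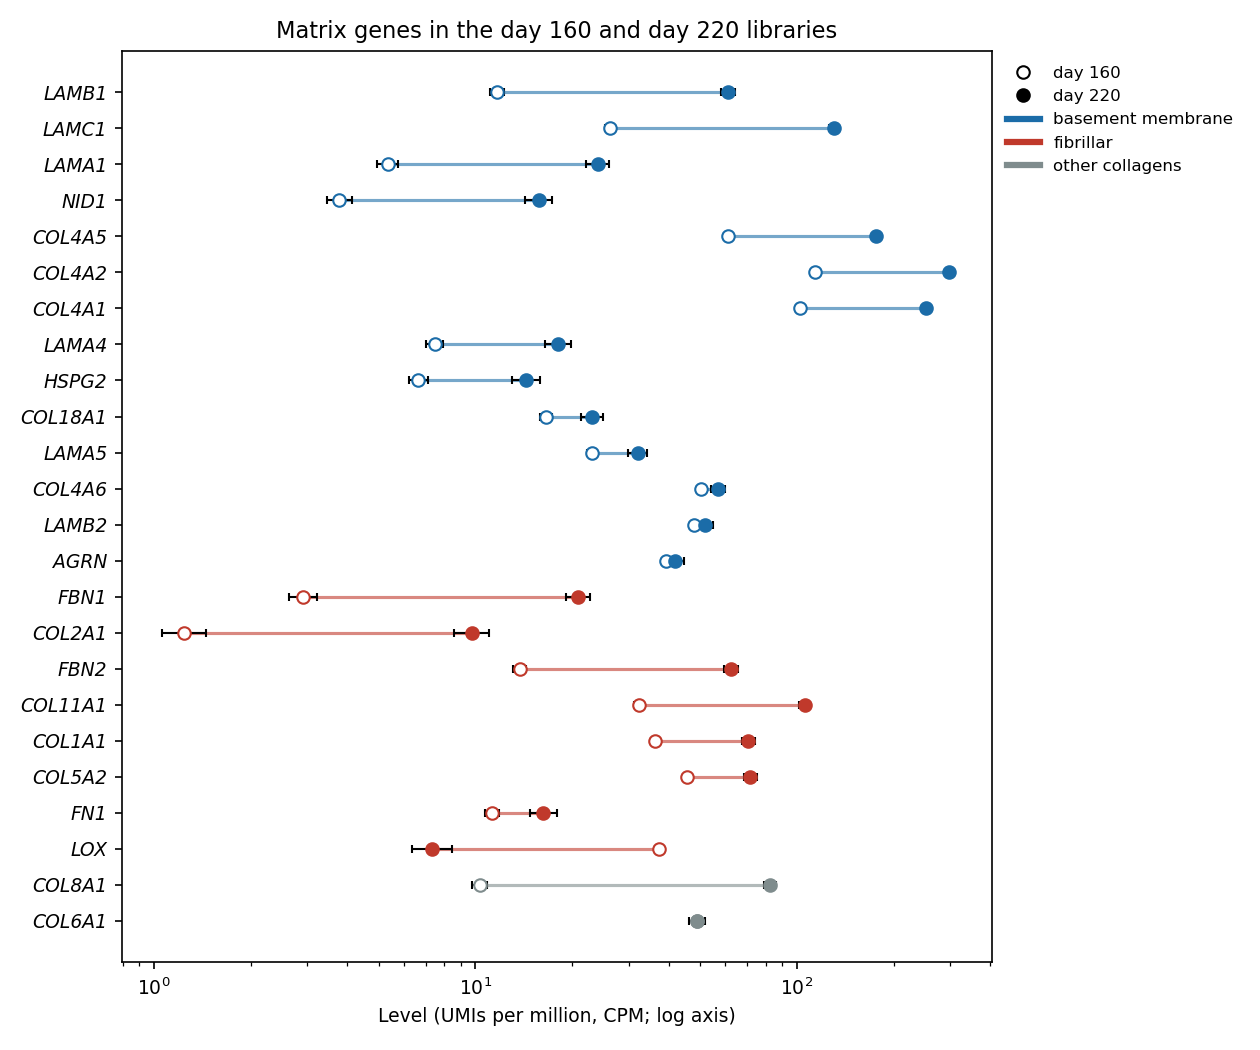
Level of the 24 matrix genes of 5 CPM or more in at least 1 library, in CPM on a log axis, at day 160 (open circles) and day 220 (filled circles), with 95% counting intervals and n = 1 library a day. LOX is the 1 gene whose day 220 level lies to the left, COL8A1 and COL2A1 have the widest gaps, and COL6A1, AGRN and LAMB2 the narrowest.

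**Figure D2:**
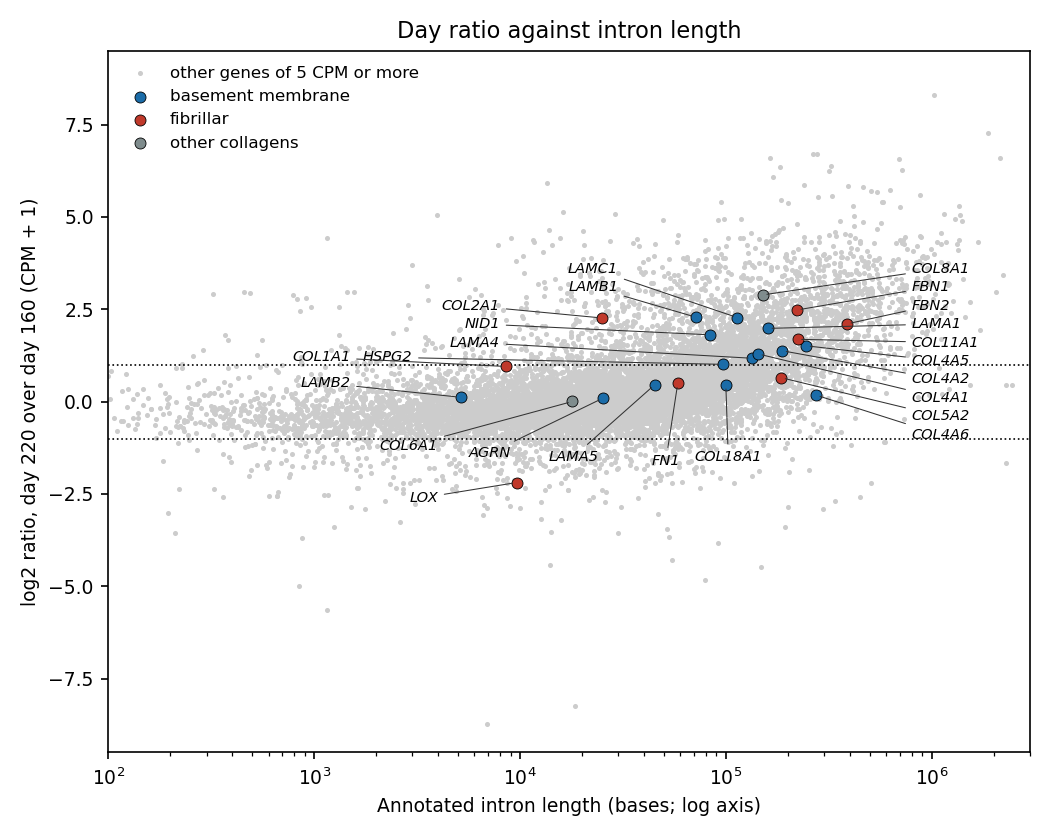
Log2 ratio of day 220 over day 160 (CPM + 1) against annotated intron length on a log axis, for the matrix genes (coloured) and 11569 other genes (grey), with 355 genes of under 100 intron bases left out. Dotted lines mark 2-fold. The grey cloud climbs with intron length. COL4A1, COL4A2 and COL4A5 lie near its middle for their length, while LOX lies toward its lower side and COL2A1 toward its upper side.

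Type IV collagen forms the network of every basement membrane. COL4A1 and COL4A2 encode the chains of its common form. They lie head to head on chromosome 13 of GRCh38, COL4A1 (ENSG00000187498) from 110148963 to 110307233 on the minus strand and COL4A2 (ENSG00000134871) from 110305812 to 110513209 on the plus strand in GENCODE. The annotated genes overlap at their starts, so counts from the overlap are uncertain unless counting used strand. RefSeq places 126 bases between their starts, and this stretch is shown because the pair had day ratios close to each other and a like pattern over clusters. Capitals mark matches on either strand to CCAAT and GGGCGG (read as ATTGG and CCGCCC on the other strand), and the stretch is 80.2% G and C.
COL4A1 and COL4A2, chr13:110307158-110307283, plus strand: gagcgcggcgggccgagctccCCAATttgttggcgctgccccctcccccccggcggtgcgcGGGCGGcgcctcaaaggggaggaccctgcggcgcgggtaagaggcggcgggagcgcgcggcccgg

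COL4A1 had 102 CPM (101 to 104) at the earlier day and 252 CPM (246 to 258) at the later, a ratio of 2.46 (2.39 to 2.53). COL4A2 had 114 CPM (112 to 116) and 298 CPM (291 to 305), a ratio of 2.61 (2.54 to 2.68). Their log2 ratios of 1.29 and 1.38 became 0.0037 and -0.19 once centred. The pair was thus higher at day 220 by about as much as other genes with introns of that length.

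COL4A5 and COL4A6 encode chains of a rarer form of the network and also lie head to head, on the X chromosome, COL4A5 (ENSG00000188153) from 108439844 to 108697545 on the plus strand and COL4A6 (ENSG00000197565) from 108155607 to 108439497 on the minus strand. Their day ratios lay further apart than those of the first pair. COL4A5 had 61.3 CPM (59.96 to 62.7) and 176 CPM (171 to 182), a ratio of 2.88 (2.78 to 2.99), while COL4A6 had 50.3 CPM (49.1 to 51.6) and 56.9 CPM (54.1 to 59.9), a ratio of 1.13 (1.07 to 1.197). The intervals of the 2 ratios do not overlap, which also holds for COL4A1 and COL4A2, whose ratios were closer. Their introns add up to 245837 and 274609 bases, and after centring COL4A5 was at -0.05 and COL4A6 at -1.39. RefSeq places 379 bases between their starts. The 250 bases before each start are shown, each in the direction of its gene, because these neighbours share this stretch in part and differed in ratio.
COL4A5, chrX:108439588-108439837, plus strand: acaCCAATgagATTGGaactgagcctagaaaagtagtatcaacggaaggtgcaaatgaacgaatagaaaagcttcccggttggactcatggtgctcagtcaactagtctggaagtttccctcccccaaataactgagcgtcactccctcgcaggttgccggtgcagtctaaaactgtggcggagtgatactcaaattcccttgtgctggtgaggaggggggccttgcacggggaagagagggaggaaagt
COL4A6, chrX:108439459-108439708, minus strand: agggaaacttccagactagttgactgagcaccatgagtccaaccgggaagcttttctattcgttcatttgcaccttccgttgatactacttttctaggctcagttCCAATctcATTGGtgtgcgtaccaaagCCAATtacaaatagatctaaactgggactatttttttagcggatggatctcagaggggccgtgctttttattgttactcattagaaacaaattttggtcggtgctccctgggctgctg

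The COL4A5 window holds 2 CCAAT matches and the COL4A6 window 3, of which 2 are the same sites read from the other strand, and neither holds GGGCGG. Of the 36 genes, 24 had an entry in the RefSeq promoter table (GRCh38.p14, 250 bases before to 50 bases after each start). CCAAT was found in at least 1 window of 10 of these 24 genes and GGGCGG in 18 of 24, against 39.7% and 48.3% of 27305 genes and 34.6% and 45.0% of 35116 windows. TGANTCA was found in 1 of 24 and GGAATG in 3 of 24, against 9.37% and 16.7% of genes. A match describes the letters only.

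COL18A1, which encodes the basement membrane collagen from which endostatin is cut, had 16.6 CPM (15.9 to 17.3) at the earlier day and 23.1 CPM (21.3 to 25.02) at the later, a ratio of 1.39 (1.27 to 1.52).

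Laminin genes differed in their day ratios. LAMB1 (ENSG00000091136, chromosome 7, 107923799 to 108003255, minus strand) and LAMB2 (ENSG00000172037, chromosome 3, 49121114 to 49133118, minus strand) encode alternative beta chains. LAMB1 had 11.7 CPM (11.1 to 12.3) at the earlier day and 61.0 CPM (58.0 to 64.1) at the later, a ratio of 5.22 (4.86 to 5.601). LAMB2 had 47.8 CPM (46.6 to 49.0) and 51.9 CPM (49.2 to 54.7), a ratio of 1.09 (1.02 to 1.15). Of the UMIs of both genes together, LAMB1 took 19.7% (18.8 to 20.6) at day 160 and 54.0% (52.2 to 55.9) at day 220. This share does not depend on the library totals, but it keeps any difference that follows intron length. LAMB2 has short introns, 5140 bases against 71317 in LAMB1. After centring LAMB1 was at 1.66 and LAMB2 at 0.42, so LAMB1 kept its 2-fold difference.

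LAMC1, which encodes the gamma chain common to most laminins (ENSG00000135862, chromosome 1, 183023460 to 183145592, plus strand), had 26.2 CPM (25.3 to 27.1) and 131 CPM (126 to 135), a ratio of 4.99 (4.75 to 5.23), and was at 1.27 after centring. Of the alpha chain genes, LAMA1, an alpha chain of early epithelia and the embryonic pia, had 5.33 and 24.0 CPM, a ratio of 4.50 (4.04 to 5.03). LAMA4, typical of vessel walls, had 7.47 and 18.1 CPM, a ratio of 2.42 (2.17 to 2.71). LAMA5, a broadly expressed alpha chain, had 23.1 and 32.0 CPM, a ratio of 1.38 (1.28 to 1.496). LAMA2, the alpha chain of muscle and of mature brain vessels, stayed under the floor at 0.34 and 1.42 CPM. After centring, LAMA1 and LAMA4 were at 0.70 and 0.17, so none of the alpha chain genes passed 2-fold on that scale.

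The genes of the linkers of both networks differed in the size of their ratio. NID1, nidogen 1, had 3.78 CPM (3.45 to 4.13) and 15.7 CPM (14.3 to 17.3), a ratio of 4.16 (3.64 to 4.76), and was at 1.16 after centring. NID2 had 4 UMIs at day 160 and 3 at day 220. HSPG2, the perlecan gene, had 6.65 and 14.4 CPM, a ratio of 2.16 (1.91 to 2.45), and AGRN, the agrin gene (ENSG00000188157, chromosome 1, 1020123 to 1056118, plus strand), had 39.3 CPM (38.2 to 40.4) and 41.9 CPM (39.4 to 44.4). For AGRN the ratio of 1.07 had an interval of 0.998 to 1.14, within which no difference was resolved. HSPG2 lay just inside the 2-fold line at a log2 ratio of 1.01 and COL1A1 just outside it at 0.95, and HSPG2 was at 0.36 after centring.

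Among the fibrillar collagens, genes of the major type I and type III fibrils were low or concentrated in few cells. COL5A2 and COL11A1, of the minor fibrillar collagens V and XI, had UMIs in every cluster, with as few as 2 each. COL1A1, the alpha 1 chain of type I collagen (ENSG00000108821, chromosome 17, 50183289 to 50201632, minus strand), had 36.1 CPM (35.1 to 37.2) at the earlier day and 70.7 CPM (67.5 to 74.1) at the later, a ratio of 1.96 (1.86 to 2.07). COL1A2, whose chain joins it in the usual type I trimer, had 2.08 CPM (1.84 to 2.34) and 2.50 CPM (1.93 to 3.19), from 268 and 65 UMIs. COL3A1, the type III gene, had 7 UMIs at day 160 and 0 at day 220, which allows up to 0.115 CPM there. These counts are far too low to compare the days for COL3A1.

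COL5A2, a chain of type V collagen (ENSG00000204262, chromosome 2, 189031896 to 189225312, minus strand), had 45.4 CPM (44.3 to 46.6) and 71.7 CPM (68.5 to 75.04), a ratio of 1.58 (1.498 to 1.66), and was at -0.91 after centring. COL11A1, a type XI chain that nucleates thin fibrils (ENSG00000060718, chromosome 1, 102876467 to 103108872, minus strand), had 32.2 CPM (31.2 to 33.2) and 106 CPM (102 to 110), a ratio of 3.29 (3.13 to 3.45), and was at 0.13 after centring. COL5A1 stayed under the floor at 1.195 and 2.54 CPM. COL2A1, the type II gene of cartilage that is also transcribed in early neuroepithelium, had 1.24 CPM (1.06 to 1.45) and 9.78 CPM (8.61 to 11.1), a ratio of 7.87 (6.43 to 9.66). It kept a log2 ratio of 2.25 after centring, against 2.27 before. Of 7 chondrocyte markers, SOX5 (35.5 and 581 CPM) and SOX6 (68.6 and 621 CPM) were at 5 CPM or more in both libraries, and the cartilage matrix genes ACAN, MATN1, CNMD and HAPLN1 had 1 to 5 UMIs each in either library and MATN3 28 and 9.

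The genes of fibril partners and microfibrils covered the whole range of ratios. FBN1, the main fibrillin of elastic microfibrils (ENSG00000166147, chromosome 15, 48408306 to 48645849, minus strand), had 2.92 CPM (2.63 to 3.23) and 20.9 CPM (19.1 to 22.7), a ratio of 7.15 (6.26 to 8.18). FBN2, the fibrillin of embryonic tissue (ENSG00000138829, chromosome 5, 128257909 to 128659185, minus strand), had 13.7 CPM (13.1 to 14.4) and 62.4 CPM (59.4 to 65.5), a ratio of 4.54 (4.24 to 4.86). Both genes are long, with 221487 and 388081 intron bases, and after centring they were at 0.92 and -0.42. FN1, the fibronectin gene, had 11.3 and 16.3 CPM, a ratio of 1.44 (1.29 to 1.61). Genes of small leucine-rich proteoglycans that coat fibrils were near 0, with LUM at 2 and 0 UMIs and DCN at 0 and 2 UMIs. POSTN, the periostin gene, had 8 UMIs at day 160 and 78 at day 220, or 0.06 and 3.00 CPM.

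LOX, which encodes lysyl oxidase, the enzyme that crosslinks collagen and elastin (ENSG00000113083, chromosome 5, 122063195 to 122078360, minus strand), was the 1 matrix gene past the floor that was 2-fold lower at day 220. It had 37.2 CPM (36.1 to 38.2) at the earlier day and 7.35 CPM (6.35 to 8.47) at the later, 5.05-fold lower (4.37 to 5.87). It has short introns of 9619 bases and stayed at -1.88 after centring, against -2.19 before. The 250 bases before its RefSeq start are shown because LOX alone of its set was lower past 2-fold, and they hold 1 match each to CCAAT and GGGCGG, in capitals.
LOX, chr5:122078260-122078509, minus strand: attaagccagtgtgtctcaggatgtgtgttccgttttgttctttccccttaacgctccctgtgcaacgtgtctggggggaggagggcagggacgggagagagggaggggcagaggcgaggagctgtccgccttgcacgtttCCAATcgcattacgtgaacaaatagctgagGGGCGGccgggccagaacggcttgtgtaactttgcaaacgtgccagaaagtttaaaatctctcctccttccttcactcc

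Of the 6 other collagens, COL8A1 had the highest ratio of the 24 genes and COL6A1 the one nearest to 1. COL8A1, a network-forming collagen of vessel walls and the basement membrane of the cornea (ENSG00000144810, chromosome 3, 99638475 to 99799226, plus strand), had 10.3 CPM (9.76 to 10.9) and 82.8 CPM (79.3 to 86.3), a ratio of 8.03 (7.49 to 8.60), and was at 1.602 after centring. COL6A1, a chain of the beaded type VI filaments (ENSG00000142156, chromosome 21, 45981737 to 46005050, plus strand), had 48.9 CPM (47.7 to 50.1) and 49.0 CPM (46.3 to 51.7), a ratio of 1.002 (0.943 to 1.06). The genes of its usual partner chains stayed under the floor. COL6A2 had 1.195 CPM (154 UMIs) and 0.46 CPM (12 UMIs), a ratio of 0.39 (0.195 to 0.695), and COL6A3 had 23 and 12 UMIs. COL9A3 had 1.64 and 3.19 CPM, and COL12A1 had 6 and 11 UMIs.

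To describe the matrix genes across cells, each library was clustered alone with all 36 genes left out of the clustering, which gave 11 clusters at day 160 and 7 at day 220, numbered by size. A cluster was named from marker lists only where it met a criterion set after seeing the data. Cluster 9 at day 160 (250 cells) and cluster 5 at day 220 (53 cells) were mesenchymal-like. Their leading genes included TAGLN, ACTA2, ANKRD1, CCN2 and TPM1, genes of contractile cells, and their mesenchymal markers summed to 9926 and 9595 CPM. They also carried radial glia markers, which summed to 15724.5 and 14738.9 CPM there, against 12065.4 and 12892 CPM over the whole libraries. The fibroblast and meningeal list summed to 55.3 and 146 CPM there, and 2 of its 10 genes reached 5 CPM in the day 160 library and 5 in the day 220 library. Over the libraries ALDH1A2 had 0.054 and 11.8 CPM, CYP1B1 0.57 and 12.9 CPM, FOXC1 4.84 and 9.93 CPM and PRRX1 17.5 and 41.7 CPM, while TWIST1 had 0.42 and 0.69 CPM and TBX18 1 and 0 UMIs. Clusters 3 and 5 at day 160 and cluster 7 at day 220 were cycling-like, cluster 7 at day 160 and cluster 4 at day 220 neuronal precursor-like, and cluster 11 at day 160 (48 cells) neuron-like. The other clusters stayed unnamed and are given by number and leading genes. Cluster 10 at day 160, in which 87.4% of 238 cells were marked as doublets, was left out of the comparisons between clusters.

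On both days each set had its highest sum in the mesenchymal-like cluster, with a wider gap to the next cluster for the fibrillar set. At day 160 the basement membrane sum ranged from 88.3 CPM in the neuron-like cluster to 1023 CPM in the mesenchymal-like cluster. It was 772 CPM in cluster 6 (led by HLA-DPA1 and other HLA class II genes) and 650 CPM in cluster 1 (HOPX, BCAN, GFAP). The remaining clusters had at most 443 CPM. The fibrillar sum was 802 CPM (785 to 819) in the mesenchymal-like cluster and 27.2 to 172 CPM in the 9 others. At day 220 the basement membrane sum ran from 243 CPM in cluster 6 (BRINP1, SCGN) to 1609 CPM in the mesenchymal-like cluster, close to the 1526 CPM of cluster 3 (OLIG1, DPP6) and the 1438 CPM of cluster 2 (SPARCL1, HLA-DPA1). The fibrillar sum was 1069 CPM (1040 to 1099) in the mesenchymal-like cluster and 148 to 271 CPM in the 6 others.

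In the mesenchymal-like clusters fibrillar genes took 41.6% (40.9 to 42.3) of the UMIs of the 36 genes at day 160 and 37.3% (36.5 to 38.2) at day 220. COL1A1 alone gave 4531 of the 8671 fibrillar UMIs at day 160 and 1802 of 4999 at day 220. Without it, an alternative chosen after seeing the data, the share was 25.4% (24.7 to 26.04) and 27.6% (26.8 to 28.4). With it, in the other clusters the share was 14.04% to 28.3% at day 160, and 13.7% to 18.9% at day 220 but for 35.0% (30.1 to 40.2) in cluster 6. There the share rested mostly on FBN2, which gave 82 of the 125 fibrillar UMIs of cluster 6. Without COL1A1 the other clusters had 13.7% to 28.2% at day 160, a range that holds the mesenchymal-like value, and 13.5% to 18.8% and 35.0% at day 220. Cluster 3 at day 220 was richest in basement membrane UMIs, with 81.7% (80.7 to 82.6). Across clusters the 2 sums went together: over 10 clusters at day 160 Pearson's r was 0.83 and Spearman's rho 0.88, and over 7 clusters at day 220 they were 0.59 and 0.93. Without the mesenchymal-like cluster r was 0.89 and 0.94. Clusters of 1 library share its depth and its free RNA, and these values are a description.

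**Figure D3:**
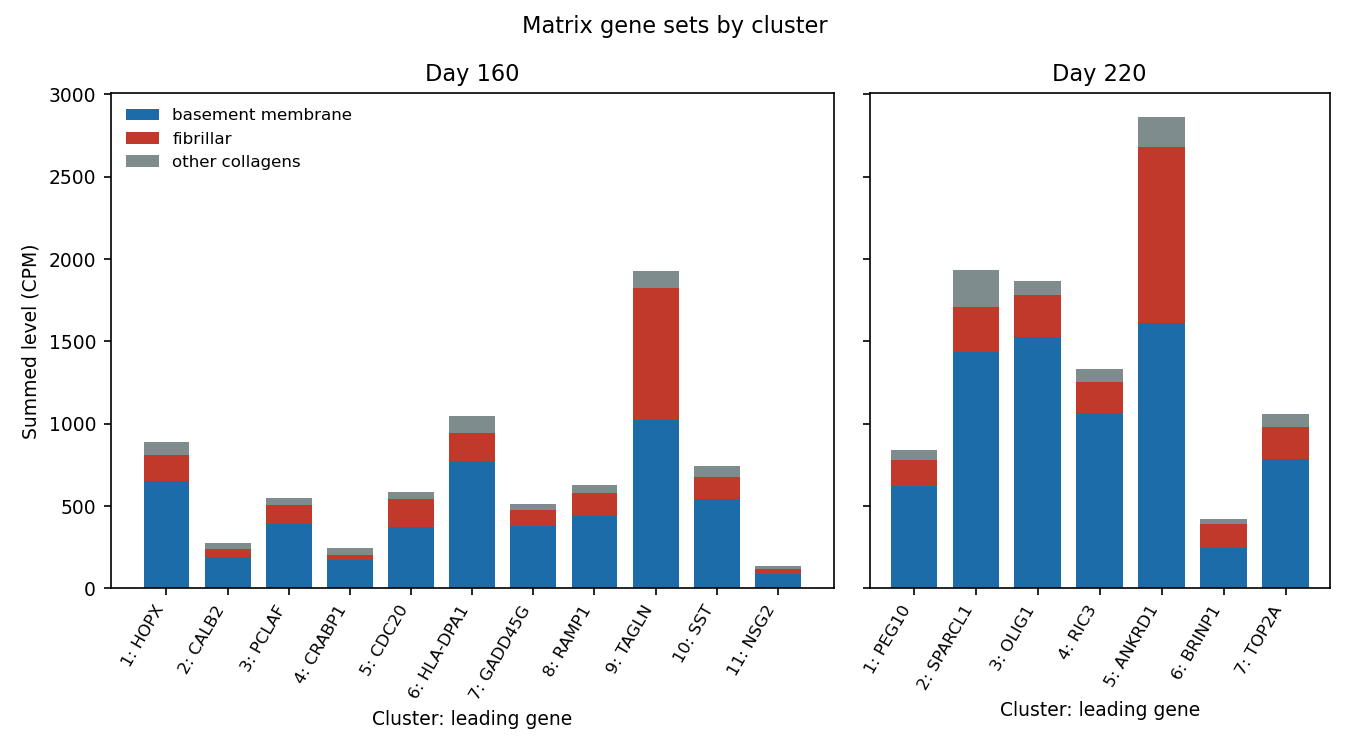
Summed level of the 3 matrix sets (CPM, stacked bars from 0) in each cluster of the day 160 and the day 220 library, with the leading gene of each cluster beside its number and the doublet-rich cluster 10 drawn too. The fibrillar part is largest in cluster 9 at day 160 (802 CPM) and cluster 5 at day 220 (1069 CPM), the mesenchymal-like clusters.

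The mesenchymal-like cells made up 2.51% of the cells and 8.39% of the UMIs at day 160 and 10.1% and 18.0% at day 220. A library-wide level of a gene of these cells therefore moves with their share, and more such cells and more RNA per cell cannot be told apart in it. Of 13 mesenchymal markers, 11 reached 5 CPM at day 160 and 10 at day 220, with sums of 1732 and 2870 CPM. In the other clusters they summed to 323 to 1985 CPM and 639 to 1957 CPM. Their part in the day ratios was not tested. Without these cells the fibrillar sum was 1.74-fold higher at day 220, against 2.03-fold with them, and the basement membrane sum 2.36-fold higher, against 2.32-fold.

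COL1A1 was almost wholly a gene of the mesenchymal-like cells. There it had 419 CPM at day 160 and 385 CPM at day 220, and in all other cells 1.03 and 1.69 CPM. These cells held 97.4% of its UMIs at day 160 and 98.0% at day 220. Within them the day ratio was 0.92 (0.870 to 0.971), so the higher library-wide level of COL1A1 at day 220 was not seen inside the cluster. After thinning every cell to 5000 UMIs, 51 of 233 mesenchymal-like cells (21.9%, 16.8 to 27.8) had a COL1A1 UMI at day 160 and 10 of 52 (19.2%, 9.63 to 32.5) at day 220.

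COL1A2 had the opposite pattern over cells. It had 0.28 and 0.21 CPM in the mesenchymal-like clusters, from 3 UMIs and 1 UMI. Its highest levels were 9.86 CPM in cluster 2 at day 160 (CALB2, SCGN, BCL11B) and 15.4 CPM in cluster 6 at day 220, which SCGN, CALB2 and BCL11B also marked. Among 9279 thinned cells at day 160, 87 had a COL1A1 UMI, 103 a COL1A2 UMI and 1 both, and among 494 at day 220 the counts were 13, 11 and 0. Counts this low do not tell whether single cells hold both. By cluster, the genes of the 2 chains of type I collagen had their highest levels in different places on both days.

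The other fibrillar genes with a strong lean to the mesenchymal-like cells were COL5A1, FBN1 and, at day 220, POSTN. COL5A1 had 9.53 CPM there against 0.43 CPM in other cells at day 160, and 12.8 against 0.28 CPM at day 220. FBN1 had 11.7 against 2.12 CPM and 71.9 against 9.67 CPM, 5.50-fold (4.41 to 6.84) and 7.43-fold (6.23 to 8.88) higher in the mesenchymal-like cells. Of the 78 POSTN UMIs at day 220, 68 lay in them. COL5A2 and COL11A1 were also highest there, COL5A2 with 157 and 178 CPM and COL11A1 with 94.0 and 287 CPM. Both had UMIs in every cluster, down to 5.74 CPM for COL11A1 and 4.74 CPM (4 UMIs) for COL5A2. Each had only 2 UMIs in the neuron-like cluster, and free RNA can add such counts. These 2 genes, whose chains can join in V/XI hybrid fibrils, varied together over clusters, with r of 0.97 over 10 clusters at day 160 and 0.95 over 7 at day 220.

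Among basement membrane genes, HSPG2 had the widest gap between the mesenchymal-like cells and the rest, at 38.7 against 3.72 CPM at day 160, 10.4-fold (9.07 to 11.9), and 47.5 against 7.13 CPM at day 220, 6.65-fold (5.39 to 8.23). LAMB1 was 6.40-fold (5.75 to 7.11) and 2.54-fold (2.29 to 2.82) higher there, COL18A1 6.02-fold (5.50 to 6.58) and 2.68-fold (2.26 to 3.17), and LAMC1 4.75-fold (4.41 to 5.11) and 1.71-fold (1.59 to 1.85). COL4A6 did not differ beyond counting error, at ratios of 1.05 (0.962 to 1.14) and 1.004 (0.876 to 1.15). At day 160 the mesenchymal-like cluster had the highest level of 16 of the 24 genes past the floor, 9 of 14 in the basement membrane set and 6 of 8 in the fibrillar set. At day 220 it was highest for 11 of 24, 6 of 14 and 5 of 8. Of the others at day 220, COL4A1 (427 CPM), COL4A2 (485 CPM) and COL6A1 were highest in cluster 3. COL4A5 (271 CPM), COL4A6 (104 CPM), LAMA1, LAMA4, LAMB2 and COL8A1 were highest in cluster 2, NID1, COL2A1 and LOX in the cycling-like cluster and FBN2 in cluster 6. Some of these ranks lay within counting error. In the mesenchymal-like cluster LAMA5 had 38.3 CPM, against 38.0 CPM in cluster 2, and AGRN 55.8 CPM, against 53.0 CPM in cluster 3. The share of all genes that were highest in the mesenchymal-like cluster is not given, so these counts do not show a trait particular to matrix genes.

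**Figure D4:**
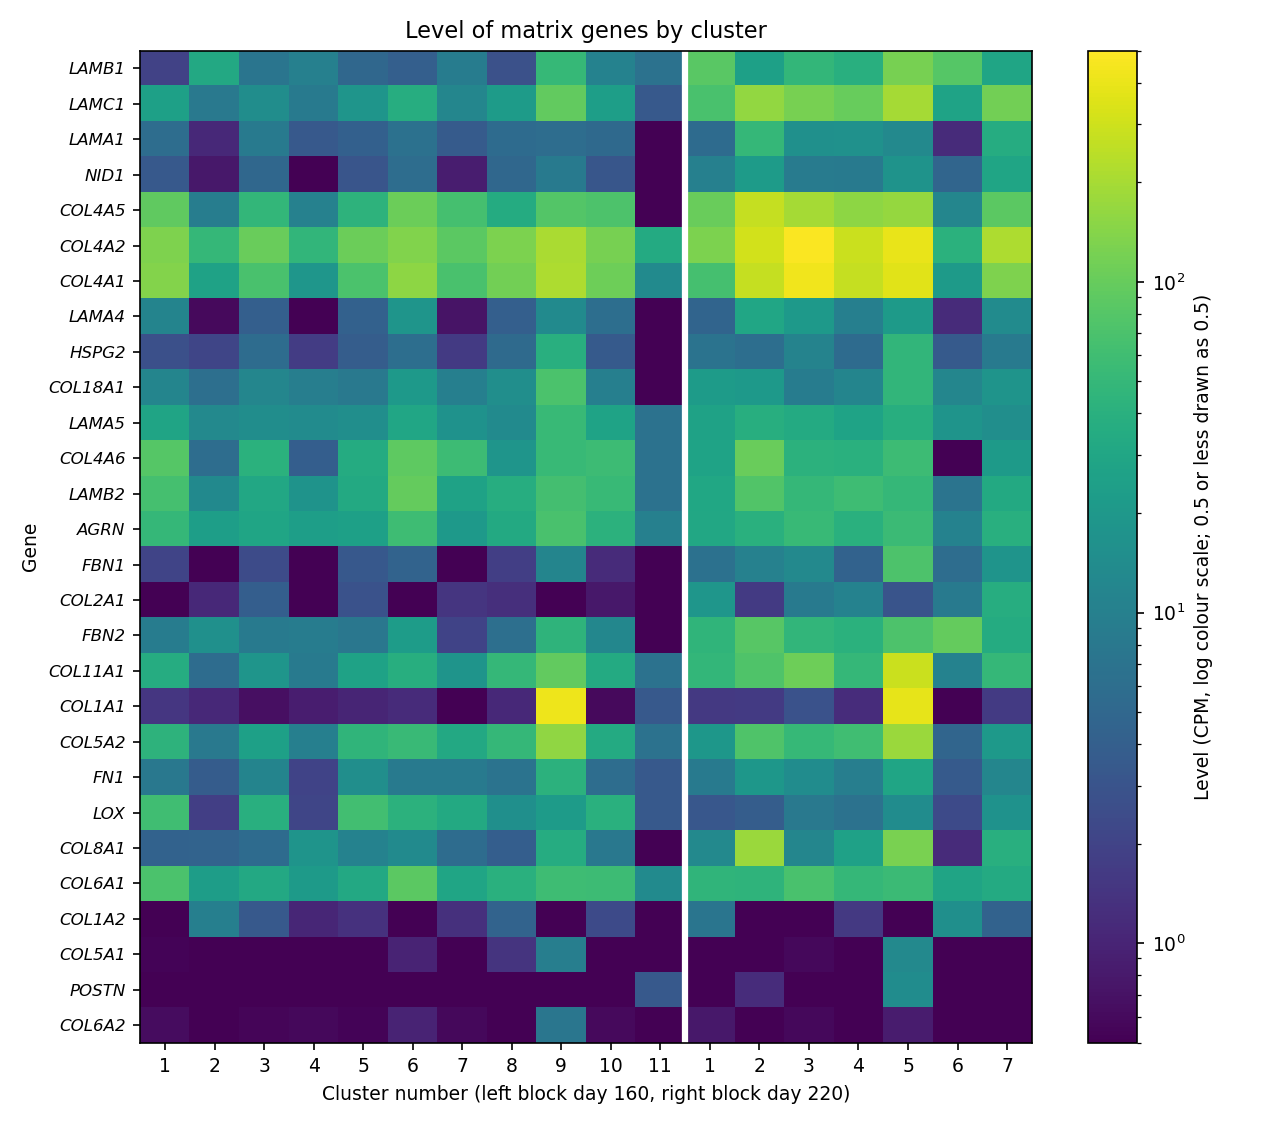
Level of each matrix gene of 5 CPM or more, and of COL1A2, COL5A1, POSTN and COL6A2, in every cluster (columns, day 160 to the left of the white line and day 220 to the right), as CPM on a log colour scale. The COL1A1 row is bright in cluster 9 at day 160 (419 CPM) and cluster 5 at day 220 (385 CPM) alone. COL4A1 and COL4A2 have 13.6 CPM or more in every cluster.

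COL4A1 and COL4A2 followed each other over clusters, with r of 0.98 over 10 clusters at day 160 and 0.99 over 7 at day 220, from 13.6 and 34.0 CPM in the neuron-like cluster to 215 and 208 CPM in the mesenchymal-like cluster at day 160. Of 9279 thinned cells, 2720 had a COL4A1 UMI, 3263 a COL4A2 UMI and 1274 both. COL4A5 and COL4A6 likewise went together, with r of 0.98 and 0.94. Both were highest in cluster 6 at day 160, at 107 and 91.2 CPM, and in cluster 2 at day 220, clusters that HLA class II genes lead or mark.

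The beta chain genes did not go together over clusters, with r of 0.0071 at day 160 and -0.40 at day 220. LAMB1 took 71.4% (67.4 to 75.2) of LAMB1 and LAMB2 UMIs in cluster 2 at day 160 and 92.0% (83.4 to 97.0) in cluster 6 at day 220, the clusters marked by SCGN and CALB2. It took 2.86% (2.17 to 3.71) in cluster 1 and 3.97% (3.06 to 5.07) in cluster 6 at day 160, and 24.8% (21.8 to 28.04) in cluster 2 at day 220. In the mesenchymal-like clusters its share was 44.8% (42.0 to 47.6) and 70.8% (67.5 to 74.0). LAMB2 was highest in cluster 6 at day 160 (98.2 CPM) and cluster 2 at day 220 (75.9 CPM). With LAMC1, LAMB1 had r of 0.68 at day 160 and 0.059 at day 220, and LAMB2 0.62 and 0.75.

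LOX had its highest value in a cycling-like cluster on both days, but the next cluster lay within counting error each time. The standing of the mesenchymal-like cells against the others changed. At day 160 LOX had 61.1 CPM (57.1 to 65.2) in cluster 5 (CDC20, CCNB1) and 59.8 CPM (57.0 to 62.8) in cluster 1. It had 39.5 CPM in cluster 3, also cycling-like, and only 1.80 and 2.103 CPM in clusters 2 and 4. The mesenchymal-like cells had 21.9 CPM then, 0.57-fold (0.497 to 0.648) the level of other cells. At day 220 no cluster exceeded the 16.8 CPM (11.4 to 23.8, 31 UMIs) of the cycling-like cluster. The mesenchymal-like cells, at 14.3 CPM (11.1 to 18.2), were 2.46-fold (1.80 to 3.34) above the others. The lower LOX level at day 220 thus lay mostly in the other cells, at 38.5 and 5.82 CPM, a ratio of 0.15 (0.125 to 0.180), against 0.65 (0.491 to 0.861) in the mesenchymal-like cells.

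FBN2, COL8A1 and COL2A1 were highest in different cells. FBN2 had 44.9 CPM in the mesenchymal-like cluster at day 160, its highest there, but 97.1 CPM in cluster 6 and 84.2 CPM in cluster 2 at day 220. COL8A1 had 36.3 CPM in the mesenchymal-like cluster and 17.7 CPM in cluster 4 (CRABP1, HOXB6) at day 160, and 178 CPM in cluster 2 and 123 CPM in the mesenchymal-like cluster at day 220. COL2A1 was highest in cycling-like cells on both days, with 3.97 CPM in cluster 3 at day 160 and 36.8 CPM in cluster 7 at day 220.

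**Figure D5:**
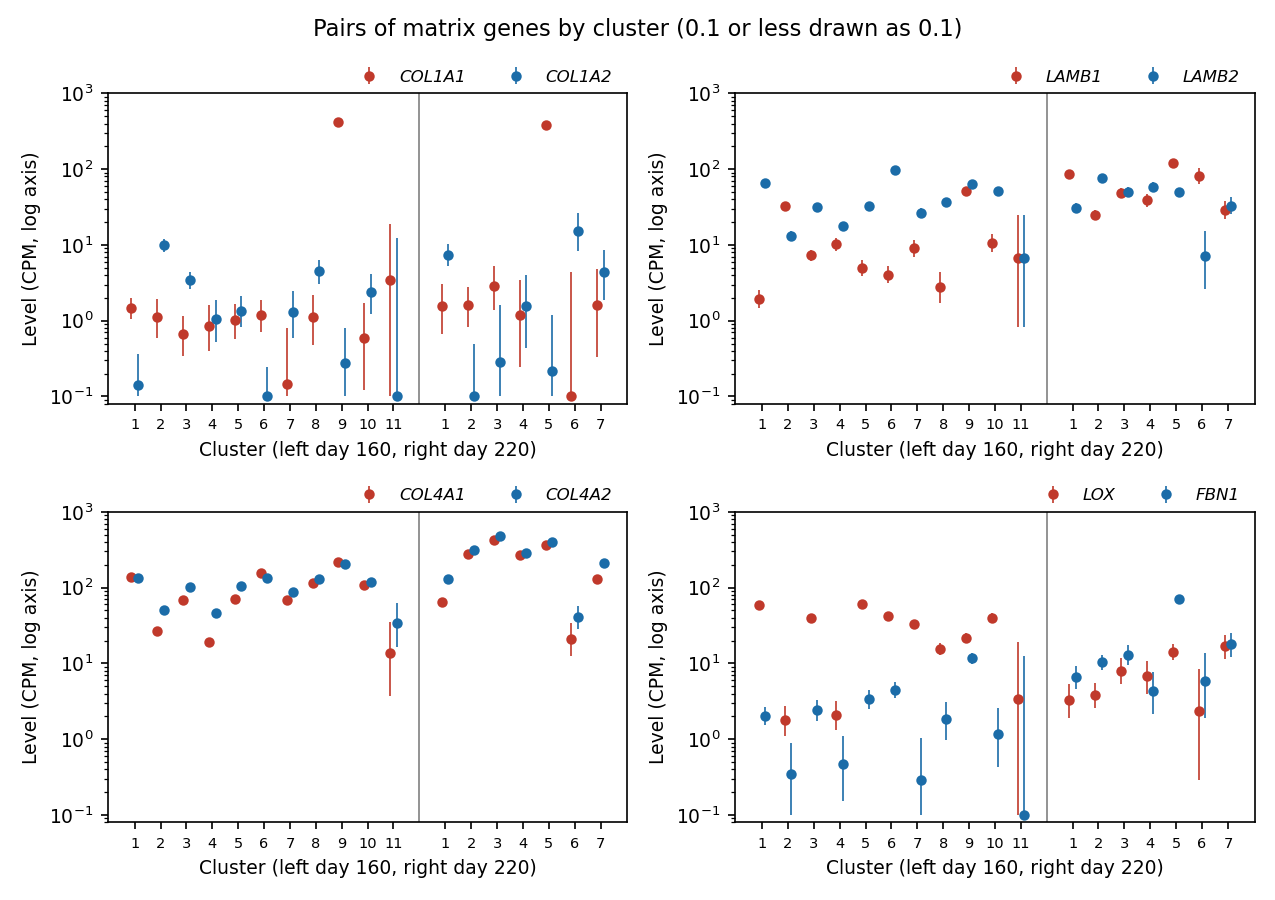
Level (CPM, log axis, with 95% counting intervals, and 0.1 or less drawn as 0.1) of 4 pairs of matrix genes in each cluster, day 160 left and day 220 right of the vertical line. COL1A1 and COL1A2 peak in different clusters, LAMB1 lies above LAMB2 in cluster 2 at day 160 and clusters 1, 5 and 6 at day 220, COL4A1 and COL4A2 run in parallel, and LOX reaches 61.1 CPM at day 160 but at most 16.8 CPM at day 220.

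The 3 named classes present on both days could be set side by side between the days. In mesenchymal-like cells 4 of 14 basement membrane genes passed 2-fold upward at day 220 and 0 downward, and their median log2 ratio was 0.69, against 20.6% higher and 5.77% lower among 11672 genes. After centring 0 were higher and 2, COL4A6 and COL18A1, lower, against 10.3% and 8.11% of all genes. Of 9 fibrillar genes past the floor there, COL11A1 (94.0 and 287 CPM), FBN1 and POSTN passed 2-fold upward and 0 genes downward, and POSTN passed through its day 220 level alone. After centring FBN1 and POSTN were higher, COL5A2 and FBN2 lower, COL11A1 at 0.26 and the median -0.38. COL18A1 had 70.3 and 47.5 CPM in these cells, a ratio of 0.68 (0.579 to 0.785), and COL6A2 7.58 and 0.86 CPM, from 82 and 4 UMIs.

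In neuronal precursor-like cells 10 of 14 basement membrane genes passed 2-fold upward and 0 downward, and their median was 1.51, against 27.5% higher and 5.93% lower among 11694 genes. After centring 5 were higher and 1 lower, against 14.5% and 8.47%. Of the 10, LAMA1, LAMA4, NID1 and HSPG2 passed the floor through their day 220 level alone and could not have counted as lower, and LAMA4 and NID1 are among the 5. LAMC1 had 11.8 and 99.5 CPM there, a ratio of 8.46 (6.56 to 11.01), and COL4A1 68.8 and 271 CPM, a ratio of 3.94 (3.50 to 4.43). Of 6 fibrillar genes, COL2A1, COL11A1 and FBN2 were higher and LOX lower, COL2A1 and FBN2 passing the floor through day 220 alone. After centring COL2A1 and FBN2 were higher and LOX lower, with a median of -0.31. The clusters of this class differed in other markers: neuronal precursor markers summed to 8438 CPM at day 160 and 4101 CPM at day 220, radial glia markers to 7318 and 9795 CPM and astrocyte markers to 1300 and 2552 CPM, and their part in these ratios was not tested. In cycling-like cells 6 of 14 passed 2-fold upward and 0 downward, and their median was 0.90, against 25.8% higher and 3.52% lower among 11915 genes, and 4 were higher and 1 lower after centring, against 12.4% and 6.56%. LAMA4 and NID1 are among the 6, and these and HSPG2 passed the floor through day 220 alone. Of 7 fibrillar genes there, COL2A1, COL11A1, FBN1 and FBN2 were higher and LOX lower, COL2A1 and FBN1 passing the floor through day 220 alone. After centring COL2A1 was higher and COL5A2 and LOX lower, with a median of -0.61. The cycling-like class too was not alike on both days, with clusters 3 and 5 at day 160 and the 33 cells of cluster 7 at day 220. In that order, cycling markers summed to 2968, 6949 and 3902 CPM and neuronal precursor markers to 4473, 3979 and 2298 CPM. Radial glia markers summed to 7694, 11640 and 8895 CPM, and the part of these differences in the ratios was not tested. As measured, LAMB1 and LAMC1 were at least 2-fold higher in all 3 classes, and LOX had the lower level at day 220 in all 3. After centring, LAMB1 and LAMC1 stayed past 2-fold in the cycling-like and neuronal precursor-like cells. In the mesenchymal-like cells they were at 0.74 and 0.23. Whether the classes differ in their day ratios was not tested.

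Per cell, basement membrane transcripts were seen in most cells of either library. After thinning to 5000 UMIs, which left out 693 shallower cells at day 160 and 30 at day 220, 77.2% (76.3 to 78.0) of cells had at least 1 basement membrane UMI at day 160 and 94.9% (92.6 to 96.7) at day 220. A fibrillar UMI was found in 38.7% (37.7 to 39.7) and 60.3% (55.9 to 64.7). Without thinning these shares were 86.2% and 96.4%, and 57.6% and 89.9%. The lowest shares at day 160 were in the neuron-like cluster, where 11 of 27 thinned cells (40.7%, 22.4 to 61.2) had a basement membrane UMI and 5 (18.5%, 6.30 to 38.1) a fibrillar one, and the highest for the fibrillar set was 79.4% of 233 mesenchymal-like cells. Free RNA in the droplets can add such UMIs, and its part in these shares was not tested.

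Genes that act on the matrix or bind it were counted from lists fixed alongside the members. Of 18 genes of collagen processing past the floor, 5 passed 2-fold upward and 1 downward, near the 23.5% and 5.08% of all genes. After centring these were 4 and 1, against 11.6% and 7.38%. P4HA3 and ADAMTS3 passed the floor through day 220 alone. ADAMTS3, a protease that trims procollagen ends, had 1.48 CPM (1.28 to 1.71) and 115 CPM (111 to 120), a ratio of 77.8 (67.2 to 90.6), and was at 3.99 after centring. The prolyl hydroxylase genes P4HA3 and P4HA1, whose enzymes stabilise the collagen helix, had 0.32 and 6.39 CPM, and 19.3 and 49.8 CPM. PCOLCE, an enhancer of procollagen cleavage, had 6.02 and 1.42 CPM and was 4.23-fold lower (3.04 to 6.05). PPIB and SEC23A, of collagen folding and export, had log2 ratios of -0.19 and 0.06.

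Of 12 matrix receptor genes past the floor, 6 passed 2-fold upward and 0 downward, against 23.5% and 5.08% of all genes, or 4 and 0 after centring, against 11.6% and 7.38%. ITGA7, an alpha chain of laminin-binding integrins, had 20.3 CPM (19.6 to 21.1) and 185 CPM (180 to 190), a ratio of 9.11 (8.68 to 9.55), and was at 3.11 after centring. ITGA3, of another laminin-binding integrin, had 17.4 and 57.1 CPM, ITGAV 37.9 and 149 CPM, ITGB5 32.3 and 97.4 CPM, and ITGB1, the beta chain common to collagen and laminin receptors, 225 and 496 CPM. DDR2, a receptor kinase for fibrillar collagen, had 2.93 and 20.2 CPM and passed the floor through day 220 alone. The laminin receptor chain genes ITGA6 and ITGB4 had log2 ratios of CPM + 1 of -0.30 and -0.92, short of the 2-fold call, and BCAM was at 0.07.

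Of 8 genes of matrix proteases and their inhibitors past the floor, 3 passed 2-fold upward and 0 downward, against 23.5% and 5.08% of all genes. After centring 1 was higher, near the 11.6% of all genes. MMP2, a gelatinase that cuts type IV collagen, had 43.2 and 149 CPM, MMP16, a membrane-bound protease that activates it, 11.9 and 123 CPM, and ADAM10, a sheddase, 33.5 and 80.8 CPM. MMP16 was the one that stayed 2-fold higher, at 1.71. Log2 ratios were -0.44 for TIMP3, -0.12 for MMP15 and 0.0015 for TIMP1.

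Of 11 genes of TGF-beta ligands, receptors, binding proteins and targets, a pathway known to drive matrix transcription, 5 passed 2-fold upward and 1 downward, against 23.5% and 5.08% of all genes, with TGFB3 and TGFBR2 past the floor through day 220 alone. After centring, LTBP1 was no longer among the higher genes and CCN1, at -0.59, no longer past 2-fold downward. TGFB2 had 23.2 CPM (22.3 to 24.0) and 113 CPM (108 to 117), a ratio of 4.86 (4.61 to 5.11), and the receptor gene TGFBR2 3.55 and 43.0 CPM, a ratio of 12.1 (10.9 to 13.5). CCN2 had 55.1 and 128 CPM while the related CCN1 had 104 and 51.0 CPM, 2.05-fold lower (1.93 to 2.17). LTBP1, which tethers latent TGF-beta to the matrix, had 23.6 and 51.4 CPM but was at -1.44 after centring. As measured, LTBP3 and LTBP4 had log2 ratios of -0.33 and -0.79, and after centring they were at -0.02 and -0.84. Of 20 further collagen, laminin and netrin genes, 3 passed the floor: NTN1, the netrin 1 gene, had 21.4 and 107 CPM, COL27A1 2.01 and 10.2 CPM, and COL9A2 6.01 and 7.58 CPM. None of these 3 was past 2-fold after centring.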

How the data were processed

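Droplet single-cell RNA libraries of 1 day 160 and 1 day 220 culture were used as deposited, as raw UMI counts per gene and barcode. Per the file headers the authors made these counts with Cell Ranger 7.0.1, and the submitters' processing notes name Cell Ranger 7, Seurat 4 and hg38. Intron counting, strand use and annotation release are not stated in the sources used. Barcodes with at least 1000 genes and at most 15% mitochondrial UMIs were summed per library and scaled to CPM. Log2 ratios used CPM + 1, a floor of 5 CPM in at least 1 library and a 2-fold call. Intervals are exact Poisson (levels), conditional binomial (ratios) and Clopper-Pearson (shares) at 95%, counting error only. With 1 library a day there are no p-values. Intron lengths came from GENCODE 29 (GRCh38), and centring used the medians of 20 bins of genes. Each library was clustered alone with scanpy 1.11.5 (2000 variable genes without the 36, 30 components, 15 neighbours, Leiden resolution 0.5). Clusters were named where at least 3 markers of a list were 2-fold up, the list led the next by a median log2 fold of 0.5 and 1 marker was among the top 10 genes, a criterion set after seeing the data. Doublets marked by Scrublet (583 and 6 cells) were kept, and leaving them out was an alternative. Members and lists were chosen with earlier results of these data known. Genes given in full had 50 CPM or more in a library or were among the 3 highest or 3 lowest ratios. Other pathway genes were named by the same extremes or at 50 CPM and 2-fold, and the rest by level. COL1A2, COL5A1, POSTN and COL6A2 were singled out by cluster, and LAMA1, LAMA4, LAMA5, NID1, HSPG2, COL18A1, COL2A1 and FN1 given more fully, after their values were seen. The scripts were tested on simulated data.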

Additional observations from a re-analysis of the deposited data

How the results depend on the processing

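No paired analysis was possible because each day is 1 library. For the same reason no library could be left out. The summed basement membrane ratio of 2.32 was 2.77 with a mitochondrial limit of 10%, 2.36 without the mesenchymal-like clusters, 2.15 in CPM without mitochondrial and ribosomal protein genes, 2.63 after thinning to 5000 UMIs and 2.54 with each cell given equal weight. The fibrillar ratio of 2.03 was 1.74 without the mesenchymal-like clusters, 1.89 without mitochondrial and ribosomal protein genes, 2.38 after thinning, 2.31 with equal weight and 2.22 for the 7 fibrillar collagens alone, of which 2 were at least 2-fold higher. A floor of 50 CPM left 8 members higher and 0 lower, with 5 basement membrane and 2 fibrillar genes higher, since fewer genes passed. Centring on intron length left 6 members higher and 2 lower, with 3 basement membrane and 2 fibrillar genes higher, and turned COL4A2 to -0.19, COL4A5 to -0.051 and FBN2 to -0.42. Centring without the mesenchymal-like clusters, chosen after seeing the data, gave 5 members higher and 3 lower, with 3 basement membrane genes and 1 fibrillar gene higher and medians of 0.13 and -0.22. COL4A1 was then at -0.026, COL4A2 at -0.24, COL4A5 at -0.047, COL11A1 at -0.32 and FBN2 at -0.22. The cause of these shifts was not tested. Depth limits the shares of cells. Thinning also leaves out every shallower cell, so the mix of cells changes with the depth chosen. This weighs most at 10000 UMIs, near the day 160 median of 10457.5, while the day 220 median was 46438. Clusters 2, 4 and 7 at day 160 had medians of 5925, 7681 and 8035 UMIs. Depth and the mix of cells cannot be told apart in these shares. The basement membrane share was 50.2% at day 160 and 74.9% at day 220 after thinning to 2000 UMIs, and 96.3% and 97.3% at 10000. At day 160 it was 86.2% not thinned and 75.5% with the 10% mitochondrial limit. The fibrillar share was 18.9% and 36.6% at 2000 UMIs, 69.9% and 78.8% at 10000, 57.6% and 89.9% not thinned, and 24.4% and 44.1% for the 7 collagens, and at day 160 it was 37.7% without the mesenchymal-like clusters. HSPG2 fell short of the 2-fold call under most alternatives. The fibrillar share in the mesenchymal-like clusters, 41.6% and 37.3%, was 25.4% and 27.6% without COL1A1, chosen after seeing the data.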
